A study of Mus musculus with 16 samples.

Results

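Gene expression was compared between untreated heart slices of Swhtr null and wild type (WT) mice, 4 libraries against 4. A gene was taken if these 8 libraries together held 10 counts of it or more, as they did for 21736 of the 55487 genes in the count table. Living heart slices were cut from male mice aged 8 weeks, 4 mice per genotype from 2 litters, and RNA was sequenced. Untreated slices stayed for 14 days at 21% oxygen. A second set of 4 libraries per genotype came from treated slices, which spent the first 7 days at 3% oxygen and the last 7 days at 21% oxygen. This set is used here to ask whether a difference between the genotypes was present there too. Its libraries also entered the fit that gave the p-values of the untreated comparison, through a shared estimate of spread. The protocol text in the labels gives the low oxygen schedule for all samples, so untreated libraries were taken from their titles and treatment labels. Swhtr null mice carry the 3xpA transcriptional stop signal on both Swhtr alleles. The line was made in embryonic stem cells of a hybrid between C57BL6 and another inbred line, backcrossed to C57BL6J and bred homozygous to homozygous, and the WT mice were C57Bl6/J. Genotype and line of origin therefore cannot be told apart in these libraries. Which library came from which mouse is not stated, so the p-values measure the spread between libraries.

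Swhtr is a long noncoding RNA transcribed away from Nkx2-5, the gene of a homeobox transcription factor needed for heart formation, and a stop signal placed early in a transcription unit ends the transcript before most of it is made. Mouse lines made from hybrid stem cells can keep stretches of the founder genome after backcrossing, most often around the targeted site. Inbred mouse lines also differ in the copy number of some gene families and in single genes that one line has lost.

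The totals of the 8 untreated libraries were 17830351 to 21633240 counts. The transcription unit of Swhtr overlaps no annotated gene, so the counts could not check the genotype of a library. Markers of fibroblasts (6 of 6), macrophages (5 of 5) and blood endothelial cells (4 of 4) were above 1 CPM (counts scaled to a common library size) in every untreated library, but only 1 of 8 cardiomyocyte markers was. Tnni3, cardiac troponin I, was at 1.31 to 2.75 CPM in WT and 2.07 to 2.81 CPM in Swhtr null libraries, and Myh6, the main myosin heavy chain of adult mouse heart, was at 0.158 to 0.654 and 0.0513 to 0.141 CPM. The comparison is thus one of slices whose RNA held little from cardiomyocytes after 14 days. In such bulk RNA, fewer cells of a type and less RNA per cell cannot be told apart.

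In untreated slices 25 genes were called changed in Swhtr null against WT, 0.115% of the genes tested, at an adjusted p under 0.05 and a change of more than 1.5-fold (0.58 on the log2 scale). Of these, 11 were higher (0.0506% of genes tested) and 14 lower (0.0644%). The median log2 fold change of all genes tested was 0. Another 6 genes had an adjusted p under 0.05 and a smaller change (31 genes, or 0.143%, with any change), and 1211 genes (5.57%) had an unadjusted p under 0.05. DESeq2 called 33 genes (0.152%), all 25 among them, and limma called 24 (0.11%). The 8 WT and Swhtr null levels did not overlap for any of the 25 genes, against 3.11% of all genes tested. Since the 25 were chosen by these same libraries, their separation is not separate support for the calls. By position and shared sequence the 25 genes fell into 11 loci, and 19 of them were annotated as protein coding. The plot of fold change against level shows the called genes among all genes tested.

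**Figure D1:**
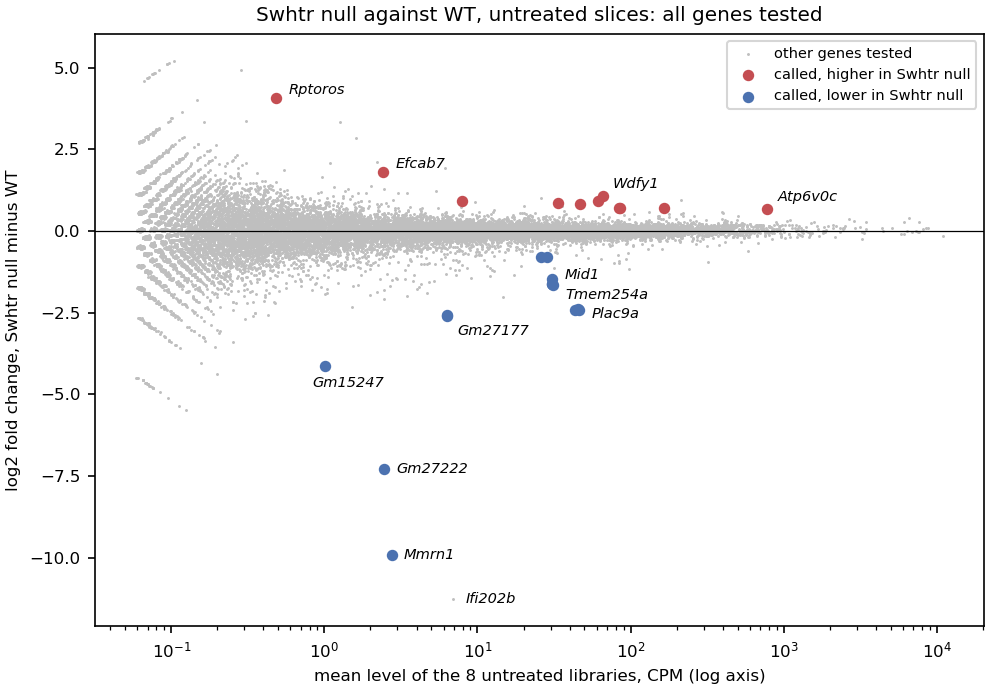
Log2 fold change of Swhtr null against WT untreated slices (y axis) against the mean level of the 8 untreated libraries in CPM (x axis, log scale), 1 point per gene tested. The 11 genes called higher are red and the 14 called lower are blue, genes not called (grey) reach values as far from 0 where levels are low, and Ifi202b at the lower edge was not called because 1 WT library alone held its counts.

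Several genes that fell on chromosome 14 belong to small families of near-identical neighbours. Their start regions were read from RefSeq (GRCm38.p6), 250 bases before to 50 bases after the annotated start, and 2 of them are printed because copies carry the same sequence. These regions lie mostly before the transcript, so they do not show how reads were assigned to the copies. The start of Tmem254a lies at chr14:25927623-25927922 on the minus strand, and that of Plac9b at chr14:26182302-26182601 on the minus strand. Capitals mark the bases that run on without a difference in a further copy, Tmem254b for the first sequence (284 bases) and Plac9a for the second (222 bases).
Tmem254a: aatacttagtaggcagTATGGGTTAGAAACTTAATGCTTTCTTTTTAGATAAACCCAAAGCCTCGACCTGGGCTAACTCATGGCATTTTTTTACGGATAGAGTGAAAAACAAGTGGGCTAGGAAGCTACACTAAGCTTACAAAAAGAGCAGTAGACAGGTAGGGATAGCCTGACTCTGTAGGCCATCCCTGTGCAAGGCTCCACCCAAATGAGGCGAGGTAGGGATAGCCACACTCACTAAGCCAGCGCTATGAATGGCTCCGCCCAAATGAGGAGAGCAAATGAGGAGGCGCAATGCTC
Plac9b: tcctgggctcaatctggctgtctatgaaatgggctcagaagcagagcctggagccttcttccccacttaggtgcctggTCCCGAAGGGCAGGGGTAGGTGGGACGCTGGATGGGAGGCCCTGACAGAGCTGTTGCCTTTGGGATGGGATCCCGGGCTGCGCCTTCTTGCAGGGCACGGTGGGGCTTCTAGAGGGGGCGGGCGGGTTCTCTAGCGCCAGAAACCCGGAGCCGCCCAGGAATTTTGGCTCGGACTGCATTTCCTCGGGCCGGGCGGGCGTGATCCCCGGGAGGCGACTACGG
The 300 bases at the start of Tmem254c, 140 kb from Tmem254a, were identical to those of Tmem254a, and the 300 bases of Gm9780 were identical to those of Plac9b, also 140 kb apart. Of the 25 called genes, 13 had a start region in the RefSeq table.

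Tmem254a, Tmem254b and Tmem254c encode small membrane proteins of the same family and lie within chromosome 14, 25923300 to 26207041, of GRCm38. Tmem254a was at 48.8, 50.2, 45.2 and 44.7 CPM in the WT libraries and at 13.6, 16, 13.7 and 17 CPM in the Swhtr null libraries. Every Swhtr null library lay far below every WT library. Tmem254a fell 3.13-fold, from 47.2 ± 2.7 to 15.1 ± 1.71 CPM (SD, n = 4 each), with a log2 fold change of -1.65 (SE 0.09, edgeR adjusted p = 4.5e-09). Tmem254b and Tmem254c fell by the same log2 fold change of -1.64. The values of the 3 genes are not independent, since 73.6% of the 100-base windows of Tmem254a transcripts and 100% of those of the other members recur in another gene.

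Plac9a, Plac9b and Gm9780 lie beside these genes. Plac9 encodes a small secreted protein first described in placenta. Plac9a (chromosome 14, 25887506 to 25903100) was at 99.3, 72.6, 66.8 and 71.1 CPM in WT and at 15.7, 13.6, 14.2 and 14.3 CPM in Swhtr null libraries. The groups were far apart, and the Swhtr null libraries varied less than the WT libraries. Plac9a fell 5.36-fold, from 77.4 ± 14.8 to 14.4 ± 0.88 CPM, with a log2 fold change of -2.42 (SE 0.18, edgeR adjusted p = 1.9e-06). Plac9b (-2.40) and Gm9780 (-2.41) fell alike, and they share 96.5% and 99.4% of their windows with other genes. Counts did not vanish in either family, and all 6 genes stayed at 13.8 to 15.1 CPM on average in Swhtr null slices. Just outside the cluster Anxa11, the gene of annexin A11, lies 702 bases away and was at 68.1 CPM in WT and 70.7 CPM in Swhtr null slices (adjusted p = 0.97). This gene and the neighbours of the other loci were picked among genes without an adjusted p under 0.05. That none of them passed was therefore fixed by the pick.

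The other 5 called genes of chromosome 14 lie between 69259146 and 69683286. Entpd4 and Entpd4b encode a nucleotide diphosphatase of the Golgi, and their transcripts have all windows in common with other genes. Entpd4 was at 30.5, 31.2, 37.2 and 32.1 CPM in WT and at 19.4, 18.2, 22 and 16.2 CPM in Swhtr null libraries. Its groups stood apart by less than those of the families above. Entpd4 fell 1.73-fold, from 32.7 ± 3.01 to 19 ± 2.43 CPM (log2 fold change -0.79, SE 0.09, edgeR adjusted p = 8.9e-05), and Entpd4b likewise (-0.80). Gm27177 and Gm16867, predicted genes that overlap the ends of Entpd4b and Entpd4 on the opposite strand, fell from 10.9 ± 0.423 to 1.75 ± 0.459 CPM and from 10.9 ± 0.485 to 1.81 ± 0.485 CPM. Gm27222, a further predicted gene there, had 108, 73, 111 and 100 counts in WT and 0, 2, 0 and 0 counts in Swhtr null libraries. Its ratio was 192, with a counting interval of 52.7 to 1590 (exact, 95%, counting error only). R3hcc1 and Chmp7 next to the cluster differed by -0.10 and 0.03 on the log2 scale (adjusted p = 0.95 and 0.98). Of 806 genes tested on chromosome 14, 11 were called (1.36%, against 0.115% of all genes tested). All 11 thus came from 2 clusters and were lower.

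**Figure D2:**
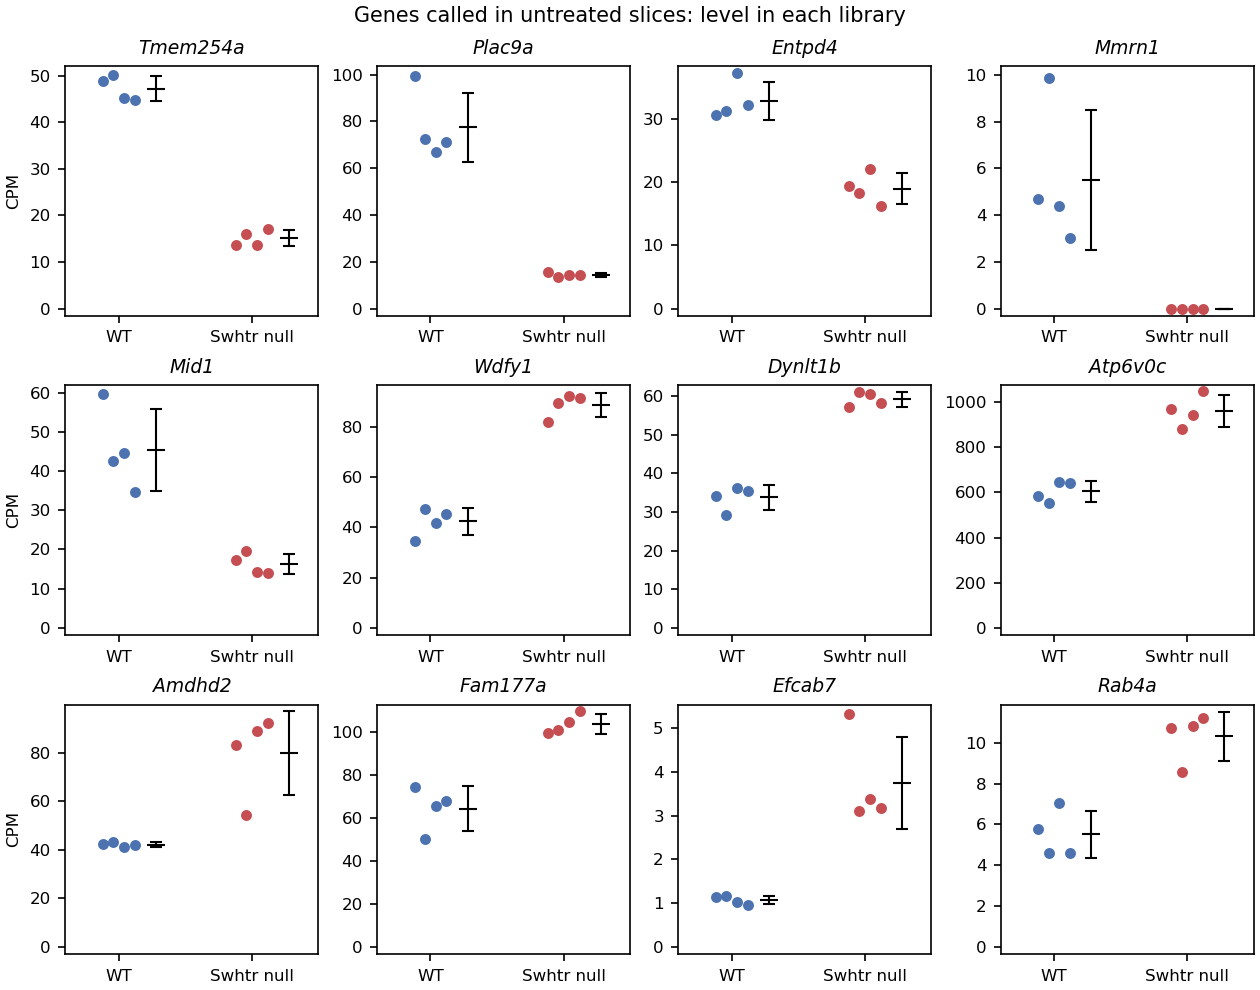
Level in CPM (y axes, linear from 0) of 12 called genes in each WT (blue) and Swhtr null (red) untreated library, with mean and SD beside the points. The 4 Swhtr null libraries lie on 1 side of the 4 WT libraries in every panel, with 0 counts of Mmrn1 in any Swhtr null library and 1 Swhtr null library of Amdhd2 near the WT values.

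Mmrn1 was the gene that Swhtr null slices lacked. It encodes multimerin 1, a large secreted protein of platelets and endothelial cells that also marks lymphatic vessels, and lies on chromosome 6, 60924976 to 60989378. Mmrn1 had 89, 188, 94 and 63 counts in the WT libraries and 0 in all 4 Swhtr null libraries. No Swhtr null library held a single count although each held 17830351 or more in all. With 3 counts over the group as the limit that a count of 0 allows, Mmrn1 was at least 142-fold lower (5.41 CPM pooled in WT against at most 0.0382 CPM, edgeR adjusted p = 3.1e-05). In treated slices it had 425 counts over the WT group and again 0 over the Swhtr null group. Tigd2 and Smarcad1, the nearest genes at 5 CPM or more on either side, differed by 0.22 and -0.11 on the log2 scale (adjusted p = 0.89 and 0.93).

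Mid1, on the X chromosome (169685199 to 170005736), fell as well. It encodes midline 1, a ubiquitin ligase that binds microtubules, and lies at the border of the pseudoautosomal region. Mid1 was at 59.6, 42.7, 44.6 and 34.7 CPM in WT and at 17.3, 19.6, 14.3 and 14 CPM in Swhtr null libraries. The lowest WT library was still above the highest Swhtr null library. Mid1 fell 2.79-fold, from 45.4 ± 10.4 to 16.3 ± 2.67 CPM (log2 fold change -1.48, SE 0.18, edgeR adjusted p = 0.00055). Gm15247, a predicted antisense gene inside Mid1, had 18, 42, 48 and 46 counts in WT and 2, 3, 1 and 2 counts in Swhtr null libraries (log2 fold change -4.15, SE 0.65, edgeR adjusted p = 0.0044). No source says whether reads were counted by strand, so those of Gm15247 and Mid1 cannot be told apart where they overlap. Gm21887, the next gene on the chromosome at 5 CPM or more, was at 82.8 CPM in WT and 46.1 CPM in Swhtr null slices. Its log2 fold change was -0.85, the direction of Mid1 (edgeR unadjusted p = 0.0084, adjusted p = 0.89).

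Among the genes that rose, Wdfy1 had the smallest adjusted p. It encodes an endosomal adaptor protein with a FYVE domain that takes part in Toll-like receptor signalling, and lies on chromosome 1, 79702262 to 79776143. Wdfy1 was at 34.7, 47.2, 41.9 and 45.5 CPM in WT and at 82, 89.4, 92.3 and 91.7 CPM in Swhtr null libraries. The Swhtr null level was 2.10-fold higher, 88.9 ± 4.71 against 42.4 ± 5.54 CPM (log2 fold change 1.07, SE 0.08, edgeR adjusted p = 3.9e-07). Serpine2, 18.1 kb away, which encodes a protease inhibitor, was at 226 CPM in WT and 187 CPM in Swhtr null slices (adjusted p = 0.90).

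Dynlt1b, a light chain of the dynein motor, rose together with its neighbour Tmem181b-ps, a pseudogene 2227 bases away, on chromosome 17 (6430112 to 6467022). Dynlt1b was at 34.2, 29.2, 36.1 and 35.5 CPM in WT and at 57.1, 61.1, 60.6 and 58.1 CPM in Swhtr null libraries, a log2 fold change of 0.81 (SE 0.07, edgeR adjusted p = 1.4e-06). Tmem181b-ps rose from 24 ± 1.78 to 42.9 ± 1.87 CPM (0.84). Dynlt1a, Dynlt1c and Dynlt1f, further copies of this family nearby, were 0.39, 0.37 and 0.28 higher on the log2 scale and did not pass (adjusted p = 0.42, 0.11 and 0.89). Dynlt1b shares 67.1% of its windows with each of Dynlt1a and Dynlt1c.

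Fam177a and its copy 1700047I17Rik2 on chromosome 12 rose by the same amount. Fam177a (55124469 to 55142104) was at 74.4, 50.1, 65.5 and 68.1 CPM in WT and at 99.7, 101, 105 and 110 CPM in Swhtr null libraries. Its log2 fold change was 0.69 (SE 0.10, edgeR adjusted p = 0.0026). The copies of Srp54, the subunit of the signal recognition particle that binds signal sequences, lie between and beside them and had smaller changes. Srp54b rose from 178 ± 14.8 to 262 ± 12 CPM (0.56 on the log2 scale), Srp54a rose by 0.53 and Srp54c by 0.43, all with an edgeR adjusted p of at most 0.002 and under the 1.5-fold threshold. 2700097O09Rik, 152 bases from the cluster, and Ppp2r3c on the other side differed by 0.25 and 0.06 (adjusted p = 0.93 and 0.97).

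Efcab7 and Rab4a rose as single genes. Efcab7, on chromosome 4 (99829198 to 99912788), encodes a protein of the primary cilium that takes part in Hedgehog signalling. It had 22, 22, 22 and 20 counts in WT and 113, 55, 68 and 62 counts in Swhtr null libraries. The Swhtr null level was 3.49-fold higher, 3.75 ± 1.06 against 1.08 ± 0.0957 CPM (log2 fold change 1.80, SE 0.22, edgeR adjusted p = 0.00015). Rab4a, on chromosome 8 (123805985 to 123835287), encodes a small GTPase of recycling endosomes and was at 5.77, 4.62, 7.05 and 4.58 CPM in WT and 10.7, 8.55, 10.8 and 11.2 CPM in Swhtr null libraries. It passed with an edgeR adjusted p of 0.027 (log2 fold change 0.91, SE 0.17). That call was lost in 6 of the 8 fits that left out 1 library (all but those without WT library 3 or Swhtr null library 2), with adjusted p-values of 0.085 to 0.16. Rptoros, an RNA from the strand opposite the Rptor gene on chromosome 11 (119820812 to 119834365), had 1, 0, 2 and 1 counts in WT and 17, 7, 23 and 26 counts in Swhtr null libraries, a ratio of 18.7 with a counting interval of 6.98 to 70.3 (edgeR adjusted p = 0.037). Its call was lost in 7 such fits, all but the one without Swhtr null library 2 (adjusted p 0.086 to 0.18), and was not made by limma (adjusted p = 0.12).

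In all, 15 of the 25 called genes (60%) had at least 50% of their transcript windows in common with another gene, against 5.75% of the genes tested, and 8 had under 10% in common. How reads that match several copies were counted is not stated, so a family gives 1 measurement rather than 1 per gene. The 60% counts each copy of a family, and the 25 genes fell into 11 loci. It is therefore not a share of separate measurements, and its distance from 5.75% cannot be read as such. Neighbours of the loci were picked only among genes without an adjusted p under 0.05, so none of them could pass by edgeR. The pick gave 51 genes around the 12 loci with an adjusted p under 0.05 (up to 2 on each side at 5 CPM or more). Of these neighbours 6 had an unadjusted p under 0.05 by edgeR, and the log2 fold changes of all 51 lay between -1.13 and 0.39.

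The stop signal itself lies on chromosome 17, and the genes around it were examined for differences in cis. Of 67 genes tested within 1 Mb of the Swhtr transcription unit, 0 were called by edgeR, against 0.115% of all genes tested. At so low a share, 0 calls among 67 genes do not show that differences in cis were absent. Of the 67, 5 (7.46%, against 5.57% of all genes tested) had an unadjusted p under 0.05, 4 of them higher. Nkx2-5, which lies 4.9 kb away, had 0, 5, 1 and 1 counts in WT and 2, 3, 0 and 6 counts in Swhtr null libraries. At so few counts a difference was not detectable (log2 fold change 0.65, SE 1.37, adjusted p = 0.98). AC132404.1, a noncoding RNA 0.189 Mb away, had 3, 1, 2 and 3 counts in WT and 10, 9, 13 and 5 counts in Swhtr null libraries, which do not overlap (log2 fold change 2.02, adjusted p = 0.89). Gm49774, an antisense RNA, had 3, 3, 7 and 8 counts in WT and 14, 18, 11 and 7 counts in Swhtr null libraries (log2 fold change 1.29, adjusted p = 0.89). Neither passed, and both rest on few counts. Rab11fip3, which encodes an effector of a recycling endosome GTPase, and Decr2, a peroxisomal reductase of fatty acid oxidation, differed by -0.23 and 0.15 on the log2 scale with unadjusted p-values of 0.017 and 0.034 (adjusted p = 0.89 for both). Gata4, a cardiac transcription factor known to bind the enhancer at the Swhtr start, was at 34.5 to 53.2 CPM in WT and 28.3 to 53.7 CPM in Swhtr null libraries (adjusted p = 0.95).

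The only called genes within 20 Mb of Swhtr were Atp6v0c and Amdhd2, 2.68 and 2.69 Mb on its centromeric side. They were 2 of 699 genes tested there (0.286%, against 0.115% of all genes tested). Atp6v0c encodes the proton-conducting ring subunit of the vacuolar ATPase, which acidifies lysosomes, and lies at 24163866 to 24169702. Atp6v0c was at 583, 552, 646 and 640 CPM in WT and at 971, 882, 943 and 1050 CPM in Swhtr null libraries, with no overlap. It rose 1.59-fold, from 605 ± 45.6 to 961 ± 68.9 CPM (log2 fold change 0.67, SE 0.10, edgeR adjusted p = 0.0027). Atp6v0c-ps2, a processed pseudogene on chromosome 6, rose by 0.69 (126 ± 8.03 to 204 ± 8.94 CPM). It has 72.7% of its windows in common with Atp6v0c, so the reads may be the same. Amdhd2, which lies 99 bases from Atp6v0c and encodes a deacetylase that breaks down N-acetylglucosamine phosphate, was at 42.4, 43.2, 41 and 42.2 CPM in WT and at 83.4, 54.4, 88.9 and 92.5 CPM in Swhtr null libraries. Swhtr null library 2 was close to the WT values and the other 3 were well above them. The log2 fold change of Amdhd2 was 0.92 (SE 0.15, edgeR adjusted p = 0.012). Its adjusted p was 0.054 to 0.064 when any 1 library other than Swhtr null library 2 was left out, and 0.062 with the 8 untreated libraries fitted alone. Pdpk1 and Tbc1d24, the neighbours on either side of the pair, differed by -0.03 and 0.10 (adjusted p = 0.99 and 0.95).

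Further along chromosome 17, all changes past an adjusted p of 0.05 were increases. Gm3435, 9030025P20Rik and Ermard, 11.8 to 11.9 Mb from Swhtr, rose by 0.48, 0.45 and 0.42 on the log2 scale (edgeR adjusted p = 0.013, 0.035 and 0.037), which is under the 1.5-fold threshold. They may not be separate measurements, since Gm3435 has 71.0% of its windows in common with Ermard and 64.8% with 9030025P20Rik. Dynlt1b and Tmem181b-ps lay 20.4 Mb away. Most genes between these points lay near 0, and the median log2 fold change of the 699 genes within 20 Mb was 0.02. The plot by distance from Swhtr shows this pattern.

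**Figure D3:**
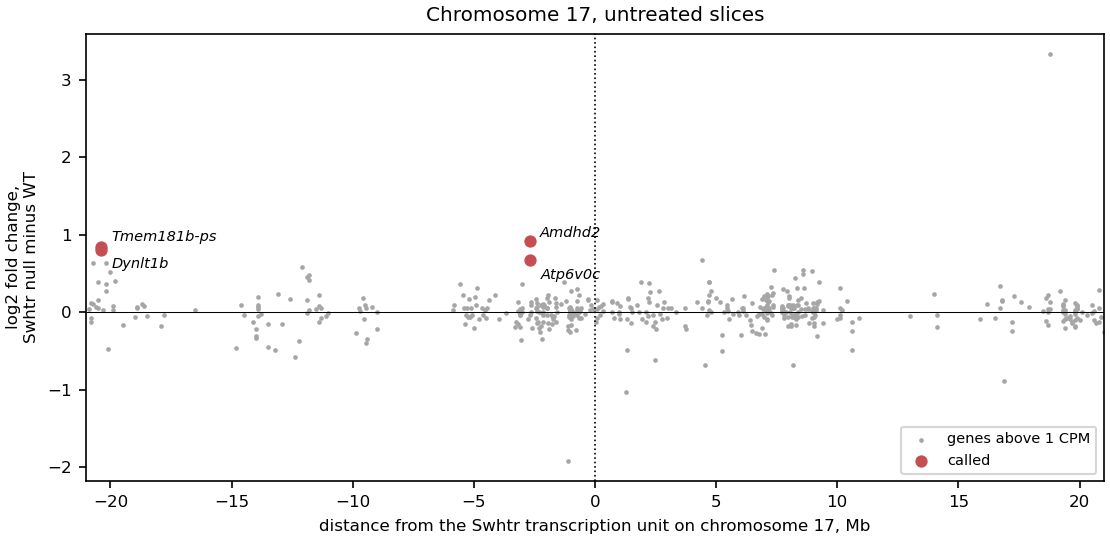
Log2 fold change of Swhtr null against WT untreated slices (y axis) of genes above 1 CPM on chromosome 17, by distance from the Swhtr transcription unit in Mb (x axis, negative towards the centromere). The 4 called genes (red) lie 2.68 and 2.69 Mb and 20.4 Mb from Swhtr, and the genes next to Swhtr lie around 0.

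The same genotype comparison in treated slices gave 23 called genes (0.106% of the same genes tested). Of the 25 genes called in untreated slices, 21 were called there too, which is 84% of the untreated and 91.3% of the treated calls, and all 25 had the same direction. The groups did not overlap for 22 of the 25 in treated slices, against 4.38% of all genes tested. These libraries are a different set, although the mice may be the same and both comparisons used a shared estimate of spread. Tmem254a was at 53.7 ± 3.51 CPM in WT and 17.7 ± 1.92 CPM in Swhtr null treated slices (log2 fold change -1.60), and Wdfy1 was at 41.6 ± 3.59 and 84 ± 2.19 CPM (1.01). Plac9a had a log2 fold change of -2.50, Entpd4 of -0.84, Mid1 of -1.22, Dynlt1b of 0.82, Efcab7 of 1.52, Fam177a of 0.59 and Rab4a of 0.90, all called. The values for each gene lay close to those of untreated slices.

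The 4 genes not called in treated slices were Atp6v0c, Atp6v0c-ps2, Amdhd2 and Rptoros. Atp6v0c was at 648 ± 23.2 CPM in WT and 871 ± 153 CPM in Swhtr null treated slices (log2 fold change 0.43, adjusted p = 0.27). Amdhd2 was at 42.5 ± 2.28 and 65.6 ± 11.9 CPM (0.63, adjusted p = 0.32). In both the Swhtr null libraries spread widely in treated slices, and of these 4 genes Amdhd2 alone kept the groups apart. The difference between treated and untreated slices was itself tested, and 0 genes (0.0%) passed by edgeR, DESeq2 or limma. By edgeR 1524 genes (7.01%) had an unadjusted p under 0.05 for it, among them Atp6v0c-ps2 as 1 of the 25. The smallest adjusted p of the 25 was 0.71. The 2 genes called in treated slices alone were Srp54a (0.58) and Srp54b (0.62), which lay just under the fold threshold in untreated slices.

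**Figure D4:**
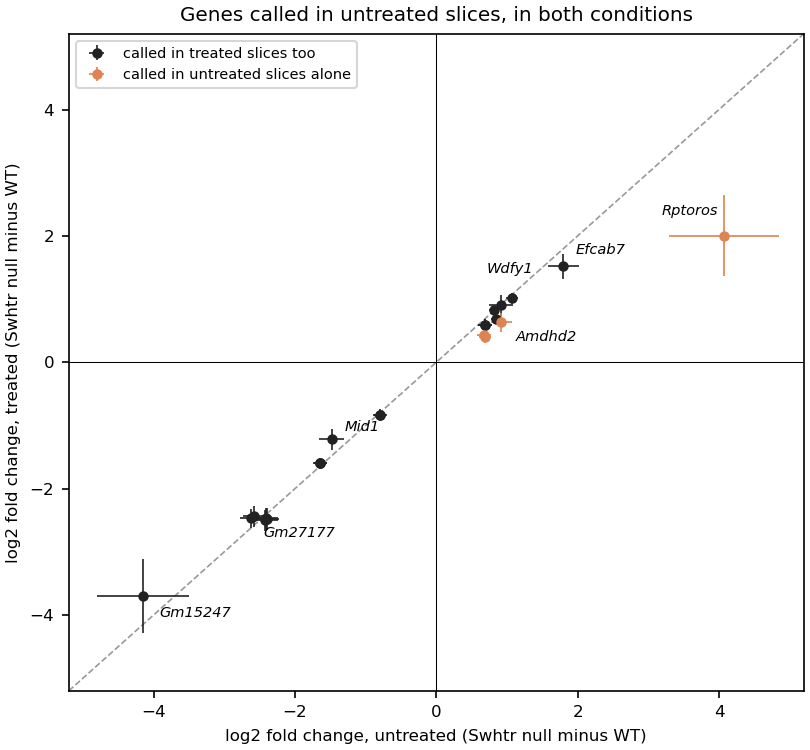
Log2 fold change of Swhtr null against WT in untreated (x axis) and treated (y axis) slices for the genes called in untreated slices, with bars of 1 SE and a dashed line at equal values. Mmrn1 and Gm27222 are not drawn since their Swhtr null counts were at or near 0, the drawn genes have the same sign in both, and the 4 genes not called in treated slices (orange) lie below the line.

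Gene lists of cell types, of pathways and of genes known to differ between mouse lines were then read for smaller shifts. The 41 lists held 790 different genes that were tested. Of these, 3 were called, against 0.115% of all genes tested. Mmrn1 was in the lymphatic list, and Wdfy1 and Entpd4 were in the list of genes known to differ between mouse lines, not in a pathway or cell type list. The lists were written with earlier results of these data known, so this placement is not separate support for a cause. Without Wdfy1, Entpd4 and Ifi202b, the 5 other tested members of that list had a median log2 fold change of 0.06. Their list levels overlapped between the groups. An unadjusted p under 0.05 was found for 86 list genes (10.9%), against 5.57% of all genes tested. In 39 lists no member was called by edgeR. The medians of the lists in the figure of list medians ran from -1.55 to 0.40 on the log2 scale, around the median of 0 for all genes. Since no member passed in nearly all lists, the values below are given as levels and counts and not as changes.

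Ribosomal protein genes were the list with the most uniform sign. All 32 were higher in Swhtr null untreated slices, with a median log2 fold change of 0.17, 0 called and 25 with an unadjusted p under 0.05. Rpl19, of the large subunit, was at 175, 201, 218 and 217 CPM in WT and 217, 243, 243 and 270 CPM in Swhtr null libraries (log2 fold change 0.26, adjusted p = 0.72). Rps18, of the small subunit, was at 448 ± 35.3 and 528 ± 45.7 CPM (0.24, adjusted p = 0.84). The mean log2 levels of the list overlapped between the groups, at 8.65 to 8.90 in WT and 8.81 to 9.10 in Swhtr null libraries. In treated slices all 32 had the opposite sign (median -0.12), 8 with an unadjusted p under 0.05. Gas5, a noncoding RNA that hosts small nucleolar RNAs and whose level depends on translation, was at 117 ± 4.76 CPM in WT and 138 ± 11.4 CPM in Swhtr null untreated slices, without overlap (0.24, adjusted p = 0.72), and differed by 0.01 in treated slices.

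Target genes of the hypoxia-inducible factor (HIF) and of glycolysis lay slightly higher in Swhtr null untreated slices. Of 31 HIF targets, 30 were higher, with a median of 0.20, 0 called and 7 with an unadjusted p under 0.05. Adm, which encodes the vasodilator peptide adrenomedullin, was at 110, 116, 146 and 161 CPM in WT and 151, 176, 193 and 179 CPM in Swhtr null libraries (log2 fold change 0.39, adjusted p = 0.89). Ddit4, an inhibitor of mTORC1, was at 193 ± 30.8 and 230 ± 10.3 CPM, and Pfkfb3, which speeds glycolysis, at 232 ± 37.8 and 279 ± 30.7 CPM. Of 21 glycolysis genes 19 were higher (median 0.14), such as Pgk1, phosphoglycerate kinase, at 1390 ± 173 and 1630 ± 160 CPM. The groups overlapped for each of these genes, and the treated medians had the opposite sign, -0.08 for HIF targets and -0.13 for glycolysis.

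**Figure D5:**
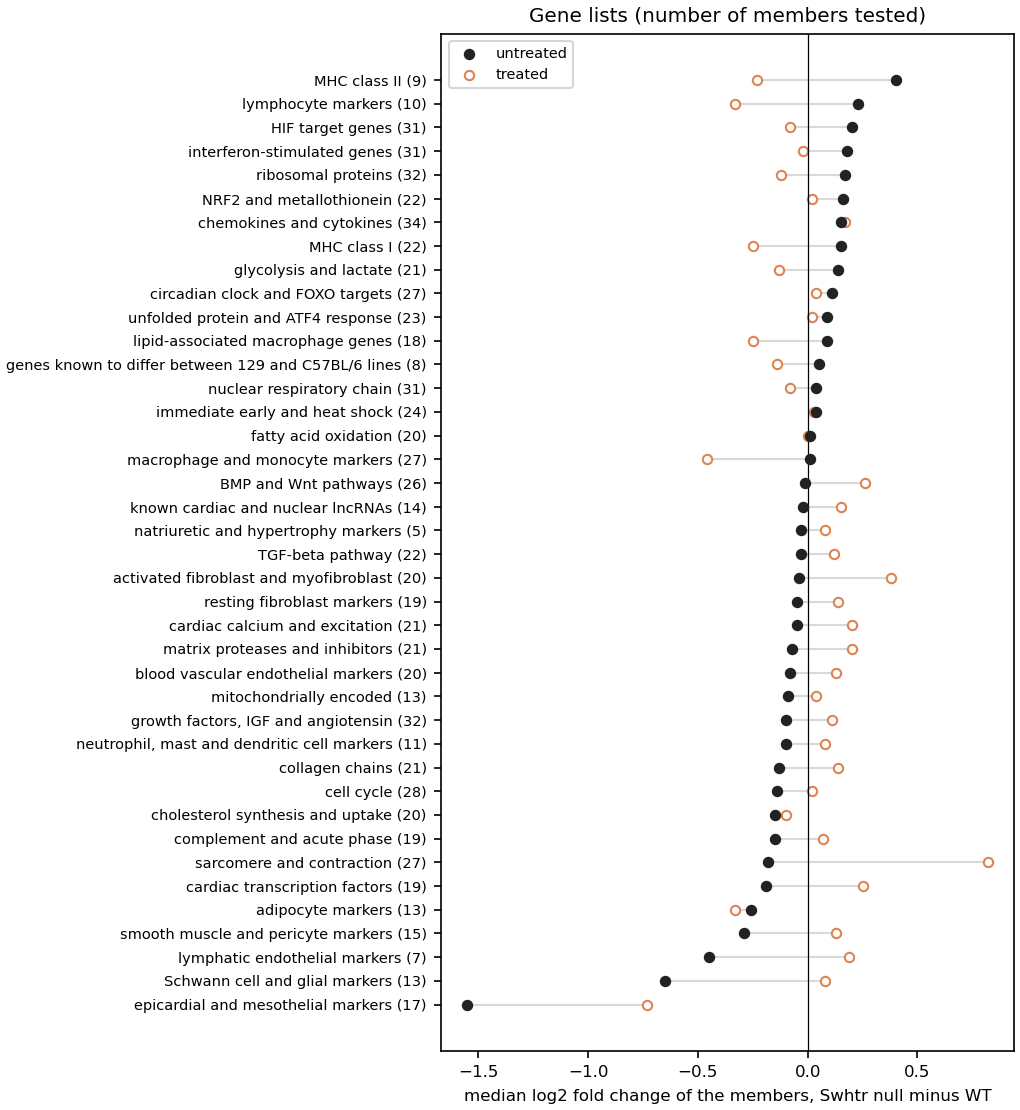
Median log2 fold change of Swhtr null against WT (x axis) of the members of each gene list with at least 5 members tested (y axis, number tested in parentheses), in untreated (filled) and treated (open) slices. Most untreated medians lie within 0.3 of 0, the epicardial and mesothelial list is the lowest in both, and several lists such as ribosomal proteins lie on opposite sides of 0.

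Markers of Schwann cells and lymphatic vessels were lower in Swhtr null untreated slices without any member other than Mmrn1 being called by edgeR. Of 13 Schwann cell and glial genes 10 were lower, with a median of -0.65 and 4 with an unadjusted p under 0.05. The mean log2 level of this list was 3.31, 3.77, 3.06 and 3.04 in WT and 2.60, 2.98, 2.81 and 2.64 in Swhtr null libraries, which do not overlap. S100b, a calcium-binding protein of glia, was at 2.89, 3.68, 2.01 and 2.26 CPM in WT and 1.84, 1.52, 1.15 and 0.770 CPM in Swhtr null libraries (log2 fold change -1.03, adjusted p = 0.89). The list summed to 382 to 443 CPM in WT and 332 to 436 CPM in Swhtr null libraries, and in treated slices its median was 0.08.

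Of 7 lymphatic endothelial genes 6 were lower (median -0.45). Lyve1, a hyaluronan receptor of lymphatic vessels and tissue macrophages, was at 11.5, 14.5, 8.17 and 8.09 CPM in WT and 4.43, 6.02, 5.09 and 2.72 CPM in Swhtr null libraries. The groups did not overlap, but the difference did not pass (log2 fold change -1.21, SE 0.34, edgeR adjusted p = 0.83), though DESeq2 on the 8 untreated libraries alone called it (adjusted p = 0.0018), and it was 0.19 in treated slices. Prox1, the transcription factor that sets lymphatic identity, was at 6.58 to 8.14 and 2.41 to 9.51 CPM. With Mmrn1 left out of the list, a step added after the data were seen, the list levels overlapped, at 3.54 to 4.50 in WT and 2.41 to 4.18 in Swhtr null libraries.

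The lowest median, -1.55 for 17 epicardial and mesothelial genes, rested on single libraries. The list level was 1.29, 4.45, 3.28 and 0.76 in WT and 1.41, 3.47, 1.53 and 0.46 in Swhtr null libraries, so that the groups overlapped fully. Msln, mesothelin of the heart surface, ranged from 0.193 to 24.1 CPM in WT and from 0.103 to 6.59 CPM in Swhtr null libraries. The median was -0.09 without WT library 2 and -2.66 without Swhtr null library 2. No member had an unadjusted p under 0.05.

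Lists of the matrix and of inflammation showed small and mixed values. Of 21 collagen chains 18 were lower (median -0.13), such as Col4a1 of the basement membrane at 3530 ± 526 and 2960 ± 375 CPM (log2 fold change -0.25), whereas 20 of the 21 were higher in treated slices (median 0.14). Mmp2, a gelatinase, was at 465, 553, 367 and 299 CPM in WT and 201, 328, 211 and 136 CPM in Swhtr null libraries (-0.94, adjusted p = 0.89), with overlap. C7, of the terminal complement complex, was at 17.5 ± 8.1 and 6.72 ± 4.13 CPM (-1.39, adjusted p = 0.89). Of 31 interferon-stimulated genes 22 were higher (median 0.18) and 6 had an unadjusted p under 0.05, with Ifit1, which binds viral RNA, at 0.816 ± 0.278 and 1.90 ± 0.887 CPM. Of 9 MHC class II genes 8 were higher (median 0.40), none with an unadjusted p under 0.05 by edgeR, but 7 were lower in treated slices (median -0.23). The 27 macrophage and monocyte genes had a median of 0.01, and Lyz2, lysozyme of myeloid cells, was at 6610 to 8580 CPM in WT and 6110 to 8810 CPM in Swhtr null libraries. In treated slices all 27 were lower (median -0.46), 0 of them called.

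Lists of the heart muscle programme held no called member by edgeR. Of 19 cardiac transcription factors 15 were lower (median -0.19), and 2 had an unadjusted p under 0.05, Mef2c at 59.5 ± 4.61 and 49.8 ± 9.04 CPM (log2 fold change -0.26) and Mef2a at 153 ± 4.89 and 142 ± 9.47 CPM (-0.12). Of 27 sarcomere genes 17 were lower (median -0.18), and leaving out 1 library moved this median from -0.49 (without Swhtr null library 2) to 0.10 (without WT library 2). In treated slices both medians had the opposite sign, with 27 of 27 sarcomere genes higher (median 0.82, 0 called, 4 with an unadjusted p under 0.05) and 16 of 19 cardiac transcription factors higher (median 0.25). Nrg1, the growth factor neuregulin 1 that acts on cardiomyocytes, was at 11.6, 6.51, 9.25 and 12.8 CPM in WT and 4.52, 5.57, 4.59 and 2.77 CPM in Swhtr null libraries. The groups did not overlap, and Nrg1 was called by DESeq2 (adjusted p = 0.05, just under the threshold) but not by edgeR (log2 fold change -1.20, SE 0.32, adjusted p = 0.62). Dmd, the dystrophin gene, stood alike: 12.7 CPM in WT and 7.70 CPM in Swhtr null untreated slices, a log2 fold change of -0.72 with an adjusted p of 0.068 by edgeR and 0.0031 by DESeq2, and 0.07 in treated slices.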

How the data were processed

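Reads (paired-end, 150 bp) were aligned by the authors with STAR to the mouse genome (mm10, GRCm38) and counted per Ensembl gene with GenomicAlignments. The deposited values are raw counts for 16 libraries. The sources name different library kits and do not say how strand or reads with several matches were handled. Gene positions came from GENCODE M21, which held 55227 of the gene identifiers.

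After TMM normalization, a model with a mean for each of the 4 groups (12 residual degrees of freedom) was fitted to all 16 libraries by the robust quasi-likelihood method of edgeR 4.0.16 (R 4.3.3). P-values named adjusted are by Benjamini-Hochberg over the 21736 genes tested. CPM are counts scaled to a common library size after TMM. A list level averages the log2 CPM (prior count 2) of members above 1 CPM. Shared sequence was measured in 100-base windows of transcripts. DESeq2 1.42.0 and limma 3.58.1 were alternatives, beside other filters, thresholds, normalization, samples and a replicate block. All pairs of untreated libraries differed by more than sampling noise (lowest chi-square per degree of freedom 6.178). The procedure was tested on simulated data.

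The genes compared and the lists were chosen with earlier results of these data known. Named are up to 12 called genes per direction (mean of 50 counts or more, groups apart, symbols of clones, predicted genes and pseudogenes left aside), genes within 1 Mb of Swhtr, cardiac reference and cell type marker genes, and up to 3 list members with the smallest p. Others (predicted genes and pseudogenes, the Srp54 copies, Ermard, Efcab7, Rptoros, Dmd, Ifi202b, Il11, Nnt and neighbours of the loci, taken by position) were named after their values were seen. A few further genes are not reported here.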

Additional observations from a re-analysis of the deposited data

Results flagged for a closer look

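In 13 of 144 groups of 4 libraries examined, 1 library stood apart from the other 3 by a gap whose share of the group's range was above Dixon's 95% critical value for 4 samples. Chance gives about 1 in 20 such groups. Swhtr null library 2 was the one apart in 5 groups, WT library 1 in 3, WT library 2 and Swhtr null library 1 in 2 each and WT library 4 in 1.

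The widest gap in CPM was that of Ifi202b, an interferon-inducible DNA sensor that is known to differ between inbred lines. WT library 2 held 1055 of its counts (55.4 CPM) and the other 3 WT libraries 1, 1 and 4, a gap of 0.997 of the range, while all Swhtr null libraries held 0. In treated slices WT library 1 held 1300 of the 1301 counts of the WT group, and the cause was not tested.

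Among genes with an adjusted p under 0.05, Swhtr null library 1 was high for Efcab7 (5.32 CPM against 3.10 to 3.39 in the others, 0.867) and for Gm9780 (14.5 against 13.5 to 13.7 CPM, 0.844). Swhtr null library 2 held the 2 counts of Gm27222 in that group (1.0). WT library 1 was low for Gm15247 (0.944 against 2.21 to 2.24 CPM, 0.973) and, by little in absolute terms, for 9030025P20Rik (25.6 against 26.0 to 26.1 CPM, 0.881). None of these libraries reached the range of the other genotype. The genes were chosen by these same libraries, so this is not separate support for them.

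Among list levels (mean log2 CPM), Swhtr null library 2 was low for lymphocyte markers (3.25 against 3.96 to 4.10, 0.835) and for neutrophil, mast and dendritic cell markers (1.99 against 2.49 to 2.55, 0.893). It was high for BMP and Wnt genes (4.64 against 3.82 to 3.84, 0.976) and for immediate early and heat shock genes (5.31 against 4.93 to 4.96, 0.921). WT library 4 was low for growth factors (5.29 against 5.52 to 5.56, 0.852), WT library 1 low for fatty acid oxidation (5.25 against 5.49 to 5.53, 0.857), and WT library 2 high for genes known to differ between mouse lines (4.45 against 3.25 to 3.43, 0.85), a list that holds Ifi202b.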

How the results depend on the processing

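Of the 471 values that the 25 called genes had under the alternatives, 438 kept the call, 33 lost it and 0 changed direction, and 22 genes were called under every alternative that tested them, a log2 threshold of 1 aside. The exceptions were Amdhd2 (8 alternatives), Rab4a (6) and Rptoros (9). The untreated count was 25, with 22 to 26 when 1 library was left out, 44 by DESeq2 on the 8 untreated libraries alone (14 higher, 30 lower), and 15 at a log2 threshold of 1. The treated count was 23, with 39 by DESeq2 and 14 at a log2 threshold of 1. The count for the difference between treated and untreated slices was 0 under every alternative run. Within 10 Mb of Swhtr, 2 genes were called, 1 with edgeR on the 8 untreated libraries, 0 at a log2 threshold of 1, and 1 to 2 with 1 library left out (2 only without Swhtr null library 2). On chromosome 17, 4 were called, 7 with no fold threshold and 0 at a log2 threshold of 1. List members called were 3, and 5 by DESeq2 on the 8 untreated libraries. With a replicate block 32 genes were called in untreated slices, the 25 among them, and 27 in treated slices. Mmp2 (-0.96) and Chga (-1.79) were among those it added (adjusted p = 0.0028 and 0.00039). Same-numbered WT and Swhtr null libraries correlated at 0.105, 0.376, 0.019 and 0.373, and those of different number at -0.457 to 0.265. The values do not settle whether the numbers pair the libraries, and no source says so. The block was therefore kept as an alternative only. Of 696 list medians 19 moved beyond the spread of the libraries and 33 changed sign. At these depths genes of a few counts per library, such as Nkx2-5, could not show a difference.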

Other observations

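DESeq2 on all 16 libraries called 8 genes that edgeR did not. They were named after their values were seen, and beside Nrg1 and Dmd they are as follows. Sprr2a1 and Sprr2a2, overlapping genes for small proline-rich proteins of the epithelial envelope, were at 1.47 and 1.85 CPM in WT and 0.443 and 0.609 CPM in Swhtr null untreated slices (DESeq2 adjusted p = 0.0068 and 0.018, edgeR adjusted p = 0.094 and 0.18). Tmem8b, a membrane protein gene, was at 3.99, 4.57, 4.67 and 3.57 CPM in WT and 6.92, 6.53, 7.88 and 6.06 CPM in Swhtr null libraries, without overlap (DESeq2 adjusted p = 0.041, edgeR adjusted p = 0.33). Tmem59l was at 0.456 and 1.47 CPM, and Gm21748, a predicted gene of the Y chromosome, at 3.38 and 1.22 CPM. Chga, the chromogranin A of neuroendocrine granules, was at 9.76, 8.09, 2.99 and 4.10 CPM in WT and 3.20, 1.80, 0.798 and 1.39 CPM in Swhtr null libraries, with overlap (DESeq2 adjusted p = 0.049, edgeR adjusted p = 0.66). In treated slices the log2 fold changes of these genes were -0.58 for Sprr2a1, -0.39 for Sprr2a2, 0.60 for Tmem8b, 0.51 for Tmem59l, -1.51 for Gm21748 and -0.48 for Chga.

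The cytokine Il11, which acts on cardiac fibroblasts, was at 1.73, 2.68, 2.38 and 3.28 CPM in WT and 2.59, 33.3, 1.10 and 1.85 CPM in Swhtr null untreated libraries, so that its higher mean in Swhtr null slices came from library 2 alone (edgeR adjusted p = 0.90). Nnt, a mitochondrial transhydrogenase that C57BL6J mice are known to lack in full-length form, had 2, 3, 5 and 6 counts in WT and 13, 8, 7 and 2 counts in Swhtr null libraries, low in both (edgeR adjusted p above 0.05). Cholesterol synthesis and uptake genes were lower in 19 of 20 cases in untreated slices (median log2 fold change -0.15) and had a median of -0.10 in treated slices, with 0 members at an unadjusted p under 0.05 in untreated slices by edgeR.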
